A study of Mus musculus with 10 samples.

Results

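The BCL2 family genes described here were 10 named genes that set whether a cell lives or dies at the mitochondrion: the pro-survival genes Bcl2l10, Mcl1, Bcl2l1 and Bcl2, the pore formers Bax and Bak1, and the BH3-only genes Bid, Bcl2l11, Bbc3 and Pmaip1. They were chosen with earlier results of these data known. By name, 9 of the 10 matched one of the 21437 genes in the expression table. Bak1 was not analysed here. The study asked how Argonaute 2 (AGO2), the small-RNA-guided endonuclease of RNA interference, takes part in the removal of maternal mRNA in mouse embryos. RNA-seq was performed on 10 libraries in 5 groups of 2. These were MII oocytes, embryos of the 2-cell stage with or without Ago2 knockdown (Ago2 kd), and embryos of the 4-cell stage likewise.

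All libraries were labelled strain ICR, the controls as wild type and the others as Ago2-kd. The embryo protocol names 7-week-old F1 females mated with F1 males, primed with 6.5 IU of pregnant mare serum gonadotropin (PMSG) and then 5 IU of human chorionic gonadotropin (hCG), so label and protocol differ on the strain of the embryos. By the study's methods, oocytes were taken from ICR females of the same age at 16 h after hCG, middle 2-cell embryos at 40 h and early 4-cell embryos at 55 h. For the knockdown, siRNAs against Ago2 and an antibody against the AGO2 protein were injected into zygotes, with scrambled siRNA as the negative control. The number of cells per library and whether replicates came from separate females are not given in the sources used here, so p-values measure only the spread between these libraries, which may be technical. Ago2 itself was not analysed here, so the knockdown has no check in these values.

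BCL2 family proteins control the permeability of the outer mitochondrial membrane. Pro-survival proteins hold the pore formers BAX and BAK in check, and BH3-only proteins, made or activated under stress, bind the pro-survival proteins or the pore formers and tip the balance towards release of cytochrome c and caspase activation. In oocytes and early embryos an mRNA can be maternal, stored during oocyte growth, or embryonic, made after the genome of the embryo is switched on.

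The stretches upstream of Mcl1, Bcl2l11 and Bbc3, at the most upstream start of each, are shown as examples of genes with low or 0 values before the 4-cell stage and higher values in both 4-cell control libraries. Each run gives the 250 bases before the transcription start in RefSeq (build GRCm38.p6), 5′ to 3′ on the strand of the gene. Capitals mark GGGCGG, the GC box, and CCAAT on either strand, with overlapping copies marked in full.
Mcl1, chr3:95658471-95658720, plus strand: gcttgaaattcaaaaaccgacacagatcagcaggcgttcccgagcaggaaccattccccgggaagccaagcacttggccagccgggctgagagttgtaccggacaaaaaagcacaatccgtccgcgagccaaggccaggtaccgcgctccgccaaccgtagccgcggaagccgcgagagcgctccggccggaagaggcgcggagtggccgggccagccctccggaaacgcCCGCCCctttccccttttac
Bcl2l11, chr2:128125788-128126037, plus strand: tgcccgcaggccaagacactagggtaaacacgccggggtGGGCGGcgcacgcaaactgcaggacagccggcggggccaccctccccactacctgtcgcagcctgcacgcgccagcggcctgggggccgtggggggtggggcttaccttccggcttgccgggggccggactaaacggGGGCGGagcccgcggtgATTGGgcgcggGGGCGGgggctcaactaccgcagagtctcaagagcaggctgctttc
Bbc3, chr7:16309333-16309582, plus strand: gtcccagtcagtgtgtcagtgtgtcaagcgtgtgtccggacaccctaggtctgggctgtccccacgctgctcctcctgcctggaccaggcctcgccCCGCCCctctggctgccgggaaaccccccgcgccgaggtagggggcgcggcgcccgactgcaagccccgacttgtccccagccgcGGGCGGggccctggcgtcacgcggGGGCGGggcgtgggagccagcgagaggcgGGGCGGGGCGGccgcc

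The Mcl1 window held 1 GGGCGG and a GC content of 64.4%, the Bcl2l11 window 3 GGGCGG and 1 CCAAT with 72.0% GC, and the Bbc3 window 5 GGGCGG with 76.4% GC. Among 32851 windows of 250 bases of RefSeq genes, 32.7% held GGGCGG and 33.8% held CCAAT, and the median GC content was 52.4%. TATAAA was in 12.4% of all windows and in none of those shown. Bcl2l11 has 1 further annotated start, with 2 GGGCGG and 2 CCAAT in its window, and Bbc3 has 2, with 1 and 7 GGGCGG and, in the latter, 1 CCAAT. The window of Bid, which was also low before the 4-cell stage, held 3 GGGCGG and that of Bax 2. The window of Bcl2, whose mRNA was near 0 in every library, held 7, and the windows of Bcl2l1 none.

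Values were FPKM, sequenced fragments scaled to the exon length of a gene and the depth of the library, a level per length that allows genes to be set side by side. The FPKM sum of a library was 450124 and 458874 in the oocytes and 178681 to 326352 in the embryos. Low values of genes with 1 transcript fell on steps, which, if 1 step is 1 fragment, put the embryo libraries at 13400000 to 18700000 fragments. Each oocyte column held 2 sets of steps where each embryo column was dominated by 1, and 42.4% and 45.3% of their values above 1 FPKM were written with more than 6 digits, against at most 1.96% in the embryo columns. Whether each is 1 library or a mean of several was not tested, and if a mean, its spread would be too small. All groups share 1 estimate of the spread of a gene, so the p-values of every comparison, not only those against oocytes, would then be too small. A 0 in this table does not show that an mRNA was lacking: of 8 genes of general cell metabolism and protein synthesis, Ppia, Rpl13, Rps6 and Eef2 were listed at 0 in all 6 oocyte and 2-cell libraries, and Gapdh did not exceed 0.167 FPKM in any library. In the first 4-cell Ago2 kd library, 14.6% of genes above 10 FPKM in its replicate were below 0.1, against 1.61% to 5.81% in the other libraries. The summed FPKM of 8 oocyte markers was 7676 and 9395 in oocytes, 1532 to 2042 at the 2-cell stage and 14.4 to 68.7 at the 4-cell stage, where the Ago2 kd libraries (68.7 and 53.4) were above the controls (23.2 and 14.4). The 7 measured markers of 2-cell genome activation summed to at most 0.809 FPKM in oocytes and to 189 to 467 in 2-cell embryos. The 1 measured marker of cumulus and granulosa cells, Foxl2, was listed at 0 in every library, and 3 blood markers summed to at most 7.04 FPKM.

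Bcl2l10 was the dominant family mRNA of the oocyte and was nearly gone by the 4-cell stage. It encodes a BCL2 family protein, grouped here as pro-survival, that is known for its expression in the ovary and oocyte. The gene lies on chromosome 9 (GRCm38, 75347758 to 75351632, plus strand, 1 transcript of 1220 bases). It measured 19660 and 22153 FPKM in MII oocytes, where it ranked 1 of 21437 genes in both libraries and took 4.37% and 4.83% of all FPKM. The 2-cell controls had 4196 and 3698 FPKM and the 2-cell Ago2 kd libraries 4252 and 4713, ranks 2 to 3. Of all FPKM it took 2.14% and 1.82% in the 2-cell controls, whose FPKM sums were lower than those of the oocytes. In the 4-cell controls it measured 17.5 and 8.0 FPKM, and in the 4-cell Ago2 kd libraries 12.2 and 4.07.

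No value of one stage overlapped with another. From MII oocyte to 2-cell control Bcl2l10 fell by 2.41 on the log2(FPKM + 1) scale (SE 0.49, limma, adjusted p = 0.0151), and from 2-cell to 4-cell control it fell by 8.25 (SE 0.49, limma, adjusted p = 7.38e-05). The first step was not called when any 1 of the 2 MII oocyte control or 2 2-cell control libraries was left out (adjusted p 0.0591 to 0.0941), after median scaling (-1.77, adjusted p = 0.0516) or after quantile normalization (-0.78, adjusted p = 0.494). The 5 tested genes whose log2(FPKM + 1) followed Bcl2l10 most closely over the 10 libraries were Angel2 (Pearson r = 0.998), AA619741, Tubb3, Fam199x and Arl6 (0.995). Their likeness is a description over points that share stages and libraries.

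**Figure D1:**
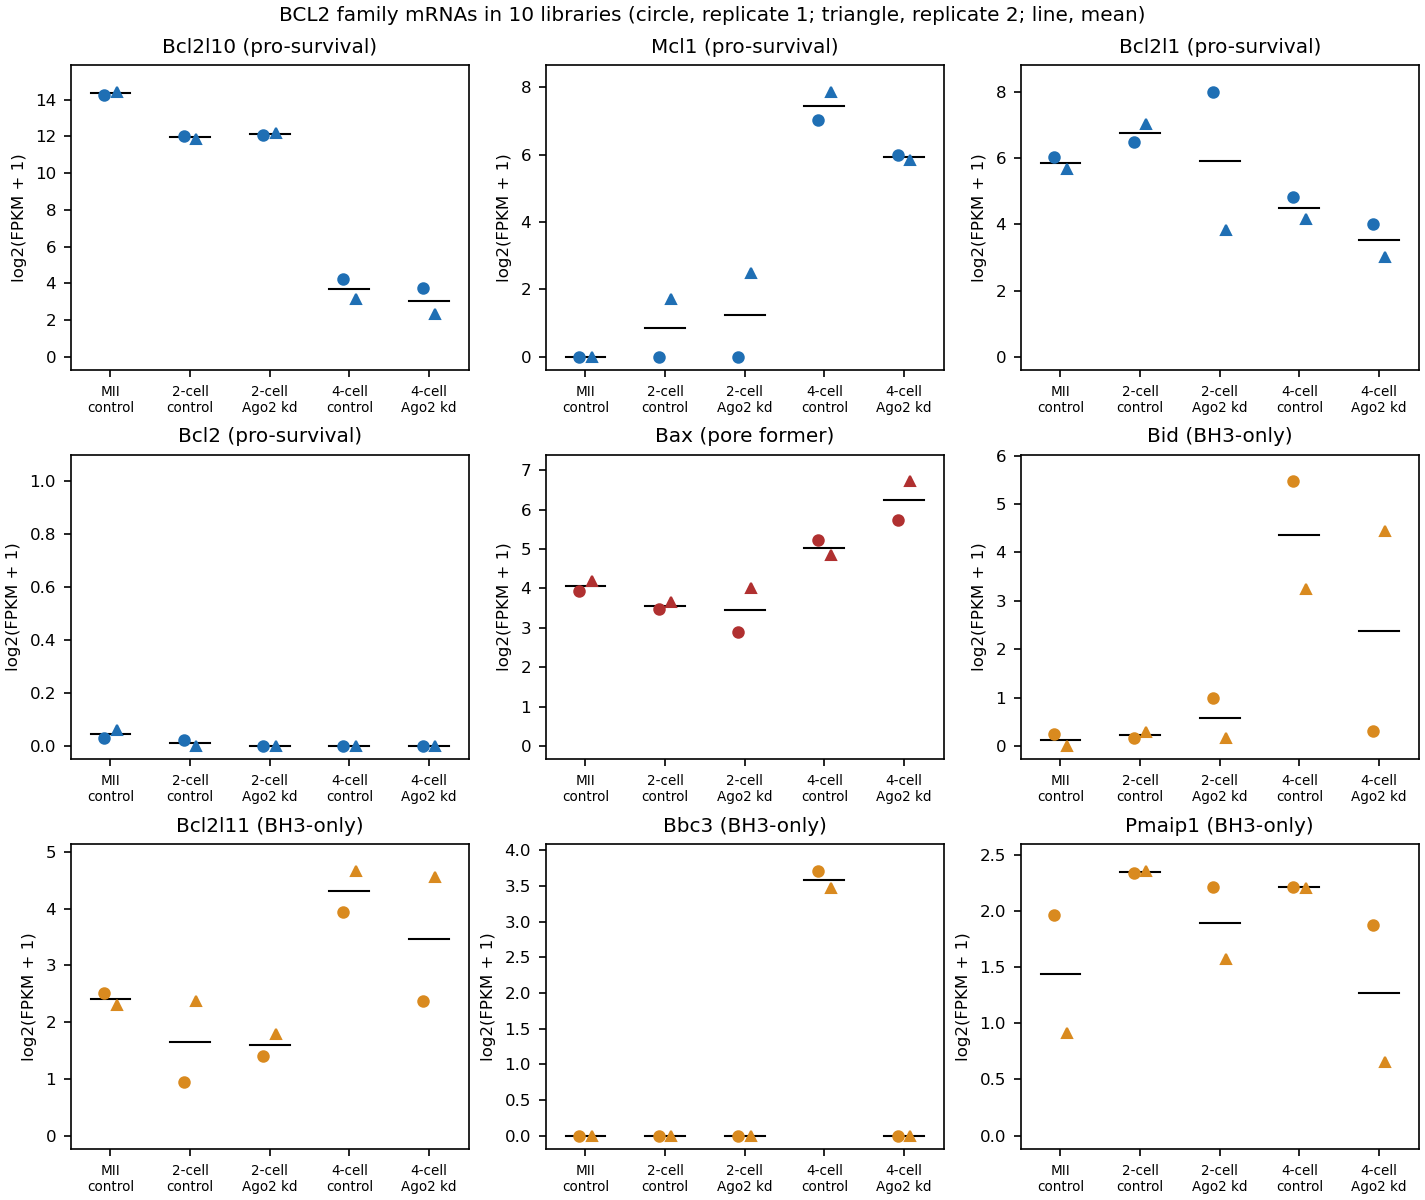
FPKM of the 9 measured BCL2 family genes in each library, drawn as log2(FPKM + 1) with a separate vertical axis for each gene; circles are replicate 1, triangles replicate 2, and lines the mean of both. Bcl2l10 steps down from 19660 and 22153 FPKM in oocytes to 4.07 to 17.5 FPKM in 4-cell embryos, Mcl1 rises to 56.7 to 232 FPKM there, and Bbc3 is above 0 in the 4-cell controls only.

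Mcl1 took the place of Bcl2l10 as the most abundant pro-survival mRNA. MCL1 is a short-lived pro-survival protein without which mouse embryos do not implant. Its gene lies on chromosome 3 (95658788 to 95663176, plus strand, 2 transcripts), and it was listed at 0 in both oocyte libraries, at 0 and 2.30 FPKM in the 2-cell controls and at 0 and 4.60 FPKM after Ago2 kd at that stage. The 4-cell controls had 131 and 232 FPKM, ranks 416 and 204, and the 4-cell Ago2 kd libraries 62.9 and 56.7 FPKM, ranks 677 and 957.

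All 4-cell values of Mcl1 were above all earlier ones, and those of the 4-cell controls above those of the 4-cell Ago2 kd libraries. From 2-cell to 4-cell control Mcl1 rose by 6.59 on the log2(FPKM + 1) scale (SE 0.90, limma, adjusted p = 0.00171), and by 5.73 to 7.46 with single libraries left out. Against the oocytes, listed at 0, the fitted difference of the 4-cell controls was 7.46 (limma, adjusted p = 0.000632). Both sizes depend on the added 1 FPKM, since a 2-cell control was also listed at 0. Eef2 was likewise listed at 0 in all 6 oocyte and 2-cell libraries and at 115 and 127 FPKM in the 4-cell controls. The part of such zeros in the Mcl1 result was not tested.

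Bcl2l1, which encodes the pro-survival protein BCL-XL, was present at every stage. Its values were 64.0 and 50.0 FPKM in oocytes, 89.5 and 128 in the 2-cell controls, 256 and 13.3 in the 2-cell Ago2 kd libraries, 27.6 and 16.8 in the 4-cell controls and 15.2 and 7.04 in the 4-cell Ago2 kd libraries. The 4-cell controls were below all oocyte and 2-cell control values. The change from 2-cell to 4-cell control was -2.26 (SE 1.21, 95% interval -5.13 to 0.61, limma, adjusted p = 0.190), and the wide error moved with the split between the 2-cell Ago2 kd libraries: without replicate 1 or 2 of that group the adjusted p was 0.0150 or 0.0142. Fitted on the groups compared alone it was 0.0186.

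Bcl2, the founding member of the family, did not exceed 0.0443 FPKM in oocytes or 0.0154 FPKM in embryos of the 2-cell stage, and all 4-cell libraries listed it at 0. It was too low to be tested.

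Summed over the 4 pro-survival genes, the level was 19724 and 22203 FPKM in oocytes, 3829 to 4731 at the 2-cell stage, 176 and 257 in the 4-cell controls and 90.3 and 67.8 in the 4-cell Ago2 kd libraries. Bcl2l10 made up 99.7% and 99.8% of this sum in oocytes and 94.3% to 99.6% at the 2-cell stage. In 4-cell embryos its share was 3.11% to 13.5%, and Mcl1 held 74.4% and 90.4% in the controls and 69.6% and 83.6% in the Ago2 kd libraries. The pro-survival mRNA thus changed its main gene between the 2-cell and the 4-cell stage with or without Ago2 kd.

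**Figure D2:**
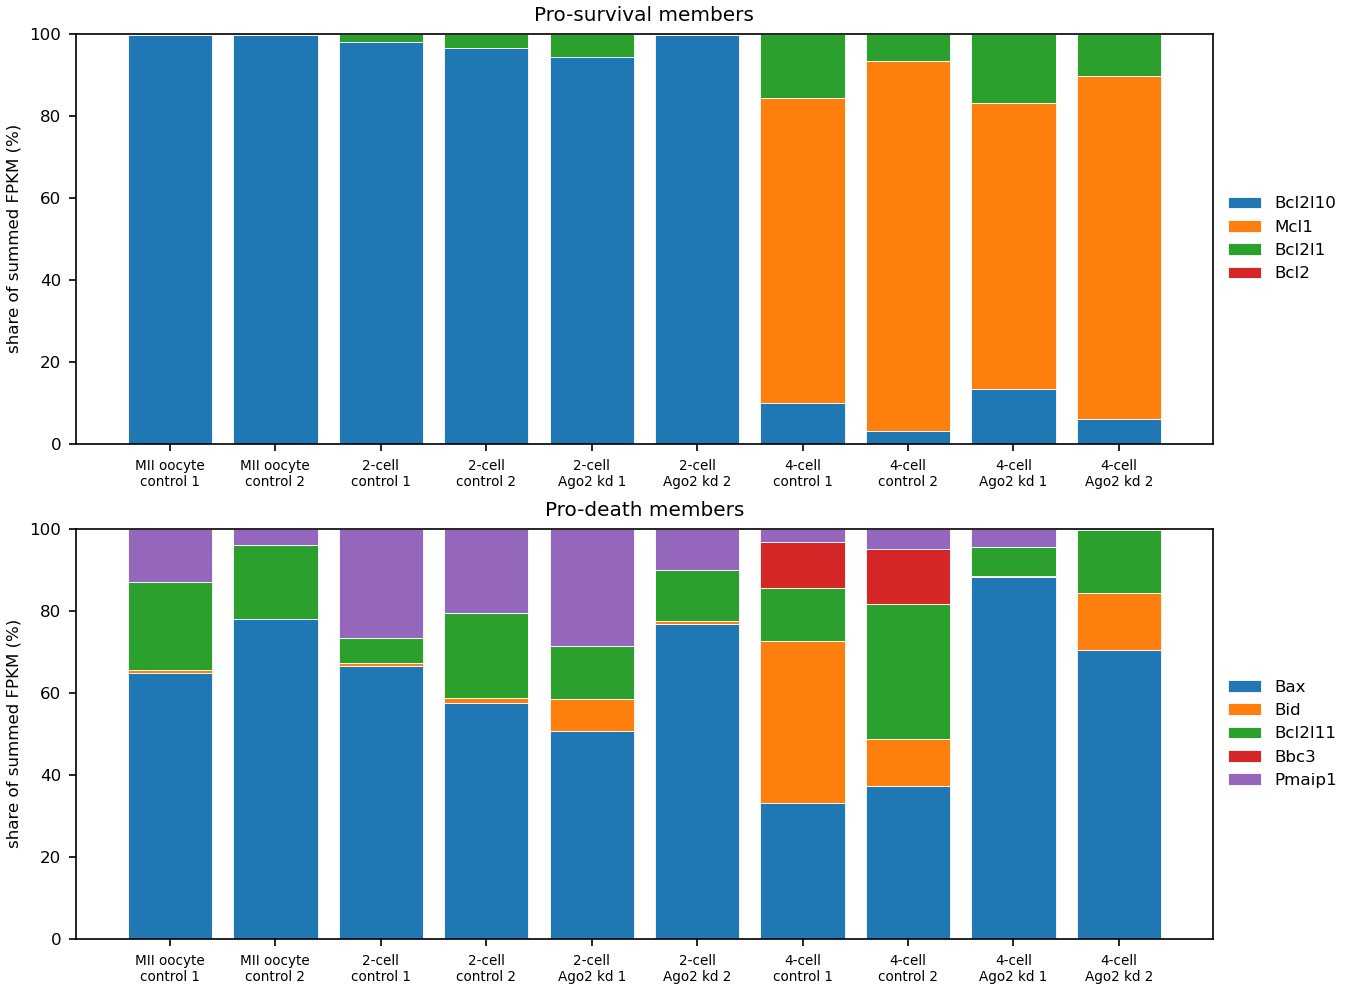
Share, in percent, of the summed FPKM of the 4 pro-survival genes (upper bars) and of the 5 measured pro-death genes (lower bars) that each gene held in each of the 10 libraries. Bcl2l10 fills 94.3% or more of every oocyte and 2-cell bar, Mcl1 69.6% or more of every 4-cell bar, and Bax is the largest pro-death share in 9 of the 10 libraries.

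The measured pro-death genes, Bax, Bid, Bcl2l11, Bbc3 and Pmaip1, summed to 22.1 FPKM in both oocyte libraries, 12.7 to 20.1 at the 2-cell stage, 110 and 74.2 in the 4-cell controls and 59.7 and 148 in the 4-cell Ago2 kd libraries. The ratio of pro-survival to pro-death FPKM was therefore 892 and 1006 in oocytes and 191 to 354 in 2-cell embryos. In the 4-cell controls it was 1.60 and 3.46, and in the 4-cell Ago2 kd libraries 1.51 and 0.458. Without Bcl2l10 the ratio was 2.89 and 2.27 in oocytes, 5.88 and 6.52 in the 2-cell controls and 1.44 and 3.36 in the 4-cell controls, still lower in the 4-cell than in the 2-cell controls. With Ago2 kd it was 20.1 and 0.910 at the earlier stage, where Bcl2l1 split the replicates, and 1.31 and 0.430 at the later one. These ratios are of mRNA, leave out Bak1, and were not tested between groups. Those with Bcl2l10 rest on its grouping as pro-survival.

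Bax encodes a pore former that moves from the cytosol to the mitochondrion when activated. It was present in all libraries, with 14.3 and 17.2 FPKM in oocytes, 10.1 and 11.6 in the 2-cell controls, 6.44 and 15.1 in the 2-cell Ago2 kd libraries, 36.4 and 27.6 in the 4-cell controls and 52.7 and 104 in the 4-cell Ago2 kd libraries. Every 4-cell value was above every earlier one, and both 4-cell Ago2 kd values were above both 4-cell controls. The 2-cell to 4-cell difference of the controls was 1.47 (SE 0.50, limma, adjusted p = 0.0569). It passed the adjusted threshold on the groups compared alone (0.0307) and without any 1 of the 4 Ago2 kd libraries (0.0394 to 0.0432). The gene (chromosome 7, 45461697 to 45466898, minus strand) overlaps the protein-coding gene Gm45808 on the same strand, and reads of both cannot be told apart.

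Bid, whose protein links death receptors to mitochondria after cleavage by caspase-8, was at or below 1.0 FPKM in all 6 oocyte and 2-cell libraries. The 4-cell controls had 43.3 and 8.49 FPKM, and the 4-cell Ago2 kd libraries 0.242 and 20.7. Both controls were above all earlier libraries, and the Ago2 kd libraries lay on either side of one of them, and the lower of the pair came from the library where 14.6% of genes were below 0.1 FPKM as described above. Before the 4-cell stage only 2-cell Ago2 kd replicate 1 reached 1 FPKM (1.0016). Bid thus passed the filter only with 4-cell libraries, so its test favoured a rise. Bid rose by 4.13 from 2-cell to 4-cell control (SE 1.32, limma, adjusted p = 0.0453). The call was lost without any 1 of the 8 libraries other than the 4-cell Ago2 kd pair (adjusted p 0.0583 to 0.209), where leaving out 4-cell control replicate 1 gave a difference of 3.02. Bid overlaps Bcl2l13 on the opposite strand of chromosome 6, and whether strand was used in counting is not given in the sources used here. Bcl2l13 itself measured 0.0872 and 45.8 FPKM in the 4-cell controls.

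Bcl2l11, which encodes BIM, a strong activator of BAX, measured 4.71 and 3.96 FPKM in oocytes, 0.923 and 4.16 in the 2-cell controls and 1.66 and 2.46 in the 2-cell Ago2 kd libraries. It reached 14.4 and 24.4 FPKM in the 4-cell controls and 4.15 and 22.5 in the 4-cell Ago2 kd libraries. The controls of the 4-cell stage did not overlap with any earlier library. Bcl2l11 rose by 2.65 from 2-cell to 4-cell control (SE 0.80, limma, adjusted p = 0.0381), but not past the threshold without any 1 of MII oocyte control 1 or 2, 2-cell control 1, 2-cell Ago2 kd 1 or 2, or 4-cell control 1 or 2 (0.0591 to 0.182).

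Bbc3, which encodes PUMA, a p53 target that binds all pro-survival proteins, was listed at 0 in 8 of the 10 libraries. The other two were the 4-cell controls, with 12.1 and 10.1 FPKM. One fragment of a Bbc3 transcript of 405 to 1814 bases would be 0.0372 to 0.175 FPKM in a 4-cell library, if a step is 1 fragment. It passed the filter on low values only through the 4-cell controls, so a difference from that group had to appear, and its spread came from that pair alone. On the log2(FPKM + 1) scale the 4-cell controls were 3.59 above the 2-cell controls (SE 0.21, limma, adjusted p = 7.19e-05). Trp53, the gene of p53, did not exceed 0.0738 FPKM in any library. Bbc3 lies on chromosome 7 (16308393 to 16318205, plus strand), with no overlapping gene in the annotation.

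Pmaip1, which encodes NOXA, a BH3-only protein that mainly binds MCL1, was not called in any comparison. It measured 2.89 and 0.878 FPKM in oocytes, 4.06 and 4.12 in the 2-cell controls, 3.63 and 1.97 in the 2-cell Ago2 kd libraries, 3.63 and 3.61 in the 4-cell controls and 2.67 and 0.579 in the 4-cell Ago2 kd libraries. The 2-cell to 4-cell control difference was -0.14 (95% interval -1.47 to 1.19, limma, adjusted p = 0.887). Oocyte and 2-cell control values did not overlap, with a difference of 0.91 (-0.42 to 2.24, limma, adjusted p = 0.330).

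Over the stages, then, 8 members could be tested, and their counts are read against all 8726 genes tested. From MII oocyte to 2-cell control, Bcl2l10 was the 1 member called, lower, where 20.8% of all genes were called (adjusted p below 0.05, limma) and 32.7% passed at unadjusted p. From 2-cell to 4-cell control, 4 members were called higher (Mcl1, Bid, Bcl2l11 and Bbc3) and 1 lower (Bcl2l10), where 38.6% of all genes were called. At unadjusted p Bax was also higher, with 46.9% of all genes. From MII oocyte to 4-cell control, 3 were called higher (Mcl1, Bid and Bbc3) and Bcl2l10 lower (-10.66), where 48.4% of all genes were called, and 54.7% at unadjusted p.

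The Bid call against the oocytes (4.24, adjusted p = 0.0339) was lost without any 1 of MII oocyte control 1 or 2, 2-cell control 1 or 2, 2-cell Ago2 kd 1 or 2, or 4-cell control 1 (0.0545 to 0.172). Bcl2l11 was 1.89 higher than in oocytes (limma, adjusted p = 0.0932), and passed without either 4-cell Ago2 kd library (0.0353 and 0.0352). Bbc3 passed the filter only through the 4-cell controls and Bid only with 4-cell libraries, so their calls were favoured in advance. These counts therefore do not set the family apart from other genes. The median change of all genes from 2-cell to 4-cell control was 0.24, and 0.02 after median scaling. From MII oocyte to 2-cell control, 571 genes were called higher and 1240 lower, against 778 and 859 after median scaling.

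In 2-cell embryos the family showed no called difference with Ago2 kd. By limma, 0 of 8 members were called at adjusted p and 0 at unadjusted p, against 0.550% and 5.96% of all genes, and 0 were called at adjusted p by any alternative. Bcl2l10 was 0.18 higher (95% interval -0.99 to 1.36), Bax 0.11 lower (-1.31 to 1.08) and Bcl2l1 0.84 lower (-3.71 to 2.03), so each interval still held changes of over 2-fold. Mcl1, listed at 0 in 1 library of each group, differed by 0.38 (-1.76 to 2.52). Bbc3 was listed at 0 in all 4.

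In 4-cell embryos Bbc3 was the 1 member called with Ago2 kd, where 4.00% of all genes were called and 15.4% passed at unadjusted p. It was 12.1 and 10.1 FPKM in the controls and listed at 0 in both Ago2 kd libraries, a difference of -3.59 on the log2(FPKM + 1) scale (SE 0.21, 95% interval -4.09 to -3.09, limma, adjusted p = 0.000266). Bbc3 was tested only through the 4-cell controls, where it was above 0, so a low value after Ago2 kd had to differ from them and the p is no independent support. The size is set by the added 1 FPKM (-6.80 with 0.1 added), and the error is small because the spread was 0 in 4 of the 5 groups. Fitted on the 4 libraries compared alone the adjusted p was 0.142, so the call rested on the pooled spread. With single libraries left out the difference was -3.71 to -3.47. Bbc3 stayed in those fits even where only 1 of the controls was left, with which it would have failed the filter, so they are no support. Without the oocyte libraries Bbc3 was still called (limma, adjusted p = 0.00303). Eef2 was also listed at 0 in the first 4-cell Ago2 kd library, with 14.5 FPKM in the second and 115 and 127 in the controls, and the part of such dropouts in the Bbc3 result was not tested. In bulk samples, fewer cells with an mRNA and less of it per cell cannot be told apart.

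Bax was 1.20 higher in the 4-cell Ago2 kd libraries (95% interval 0.0053 to 2.40, limma, adjusted p = 0.321), past the unadjusted threshold alone. Both Ago2 kd values, 52.7 and 104 FPKM, were above both controls, 36.4 and 27.6, but the unadjusted threshold was missed when either oocyte, either 2-cell control or either 4-cell control library, or 4-cell Ago2 kd replicate 2, was left out. Without 4-cell Ago2 kd replicate 2 the difference was 0.71 (adjusted p = 0.643). On the pro-survival side, Mcl1 was -1.53 (-3.67 to 0.61, adjusted p = 0.507), Bcl2l1 -0.98 (-3.85 to 1.89, adjusted p = 0.832) and Bcl2l10 -0.66 (-1.83 to 0.51, adjusted p = 0.625) in limma. Mcl1 and Bcl2l1 values did not overlap between control and Ago2 kd, while those of Bcl2l10 did. The share of all genes without overlap was not counted, so nothing is read from these separations.

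Among the other BH3-only genes the 4-cell Ago2 kd difference was -1.98 for Bid (-5.11 to 1.15), -0.85 for Bcl2l11 (-2.75 to 1.06) and -0.94 for Pmaip1 (-2.27 to 0.39), none called. For Bid and Bcl2l11 the first Ago2 kd library was the low one, at 0.242 and 4.15 FPKM against 20.7 and 22.5 in the second. For Pmaip1 the second was the low one, and both were below both controls. The 4-cell controls served both this comparison and the stage comparisons, so a chance high or low value there moves both.

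**Figure D3:**
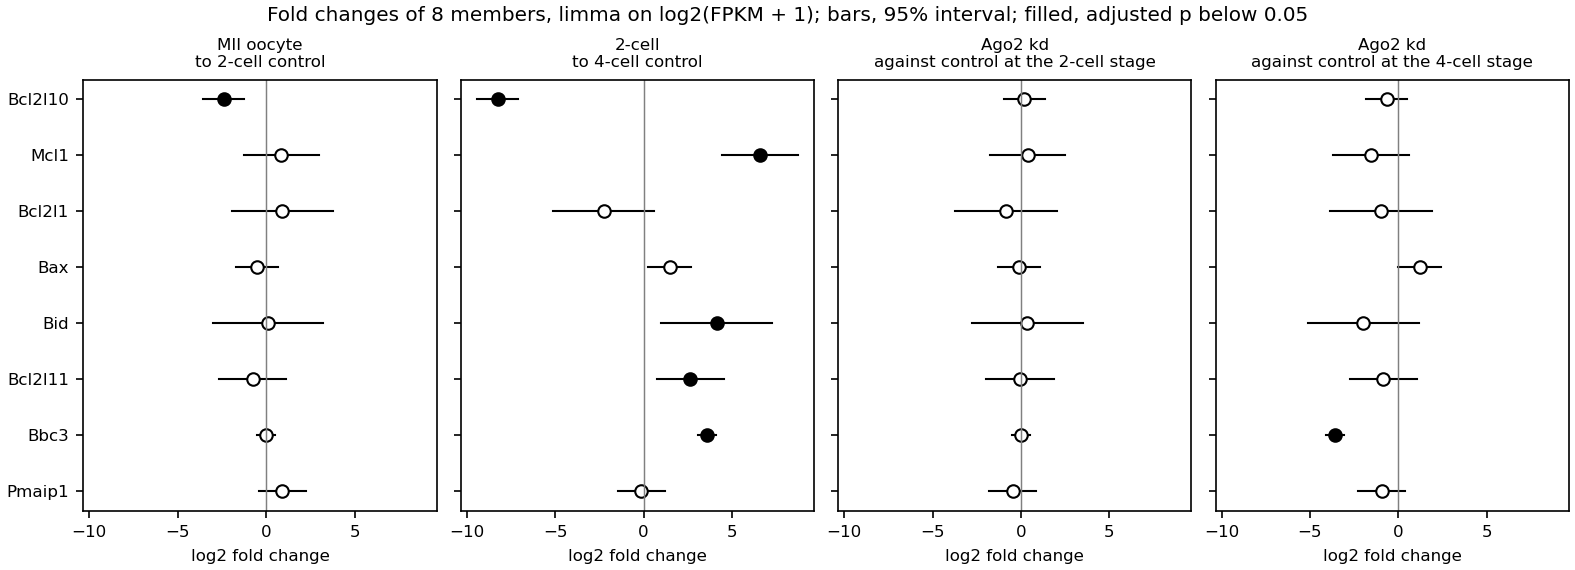
Log2 fold changes of the 8 tested members on the log2(FPKM + 1) scale in 4 comparisons, with 95% intervals from limma; filled points have an adjusted p below 0.05 and open points do not. The 2-cell to 4-cell panel runs from -8.25 for Bcl2l10 to 6.59 for Mcl1, the 2-cell Ago2 kd panel holds no filled point, and Bbc3 at -3.59 is the only filled point for Ago2 kd at the 4-cell stage.

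Tested as an interaction, the Ago2 kd difference at the 4-cell stage minus that at the 2-cell stage was called for 1 member, Bbc3 (-3.59, SE 0.30, limma, adjusted p = 0.00238), where 2.28% of all genes were called and 13.4% passed at unadjusted p. At the 2-cell stage Bbc3 was listed at 0 in control and Ago2 kd alike, so the interaction restates the 4-cell values, with the same limits, and measures no difference of its own. For Bax it was 1.31 (-0.38 to 3.003, adjusted p = 0.508) and for Mcl1 -1.91 (-4.93 to 1.11, adjusted p = 0.603) in limma.

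Around the family, 68 further genes of apoptosis were listed by role, of which 52 were in the table and 37 were tested. From 2-cell to 4-cell control 6 were called higher and 9 lower, with a median change of 0.56 against 0.24 over all genes, of which 38.6% were called. From MII oocyte to 2-cell control 1 was called higher (Vdac2) and 2 lower (Casp9 and Mdm2), with a median of -0.17 against -0.06 and 20.8% of all genes called. From MII oocyte to 4-cell control 8 were higher and 7 lower, with a median of -0.22 against 0.00 and 48.4% of all genes called. The counts of the single lists below, of 6 to 10 genes each, stand beside the same 38.6% for the change from 2-cell to 4-cell control, and nothing is read from them about a list.

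Of the other BCL2 relatives, 6 of 16 were tested, and 3 rose from 2-cell to 4-cell control while none fell. Bcl2l14, a less studied relative, was at most 0.599 FPKM in oocytes and 2-cell embryos, and 35.9 and 35.4 FPKM in the 4-cell controls and 27.1 and 40.4 in the 4-cell Ago2 kd libraries (4.86, limma, adjusted p = 0.000224). Bnip3, a mitophagy receptor, went from 73.2 and 48.8 to 677 and 412 FPKM (3.12, adjusted p = 0.00238, limma). Bad, a BH3-only gene, was listed at 0 in both 2-cell controls and at 7.51 and 1.04 FPKM at the 4-cell stage (2.06, adjusted p = 0.0379, limma). Bcl2l14 and Bad reached 1 FPKM in 4-cell libraries alone and passed the filter only there, so their tests had to favour a rise. All 3 were above 0 in both 4-cell Ago2 kd libraries too.

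Of the apoptosome and caspase genes, 7 of 14 were tested, and from 2-cell to 4-cell control 2 fell and none rose. Apaf1, the scaffold of the apoptosome, went from 8.02 and 11.6 to 0.0546 and 2.95 FPKM (-2.39, limma, adjusted p = 0.0317), and Casp2 from 1.60 and 2.00 to 0.0505 and 0.364 FPKM (-1.22, adjusted p = 0.0322). The initiator Casp9 had fallen earlier, from 2.73 and 3.14 FPKM in oocytes to 0.0221 and 0 in the 2-cell controls (-1.96, limma, adjusted p = 0.00987). Casp2 passed the filter only with the 2-cell controls and Casp9 only with the oocytes, so their tests favoured a fall from those groups.

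Of the inhibitor of apoptosis (IAP) proteins and their antagonists, 6 of 8 were tested and 1 fell. This was Birc5 (survivin), better known as a part of the mitotic chromosomal passenger complex, which went from 797 and 926 FPKM in the 2-cell controls to 346 and 263 in the 4-cell controls (-1.51, limma, adjusted p = 0.0271). Xiap, the strongest caspase inhibitor of the family, did not exceed 0.635 FPKM in any library.

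Of the mitochondrial channels and released proteins, 10 of 13 were tested, and 2 rose (Aifm1 and Bag1) and 4 fell (Mff, Vdac2, Tmbim6 and Opa1) from 2-cell to 4-cell control. Vdac2, an outer membrane channel that holds BAK, had first risen from 7.93 and 10.99 FPKM in oocytes to 42.7 and 27.7 in the 2-cell controls (1.78, limma, adjusted p = 0.0192), and then fell to 0.706 and 0.464 FPKM (-4.49, adjusted p = 0.000279). Mff, a receptor for mitochondrial fission, fell from 553 and 263 to 22.4 and 2.85 FPKM (-5.33, limma, adjusted p = 0.00427). Bag1, a co-chaperone that binds BCL2 and is neither a channel nor a released protein, rose from 1.86 and 2.99 to 215 and 261 FPKM (6.14, limma, adjusted p = 0.00169).

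Of the regulators of the members, 8 of 17 were tested, with 1 higher and 2 lower from 2-cell to 4-cell control. Usp9x, a deubiquitinase that stabilises MCL1, fell from 44.8 and 59.5 to 0.203 and 0.533 FPKM (-5.28, limma, adjusted p = 0.00453). Mapk8, the kinase JNK1, fell from 29.8 and 26.1 to 0 and 2.49 FPKM (-3.95, adjusted p = 0.00302). Gsk3b, a kinase that marks MCL1 for degradation, rose from 2.53 and 4.63 to 25.5 and 28.8 FPKM (2.66, limma, adjusted p = 0.00259). Mdm2, the ubiquitin ligase of p53, was 256 and 214 FPKM in oocytes and 8.64 and 48.9 in the 2-cell controls (-3.42, limma, adjusted p = 0.0452).

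**Figure D4:**
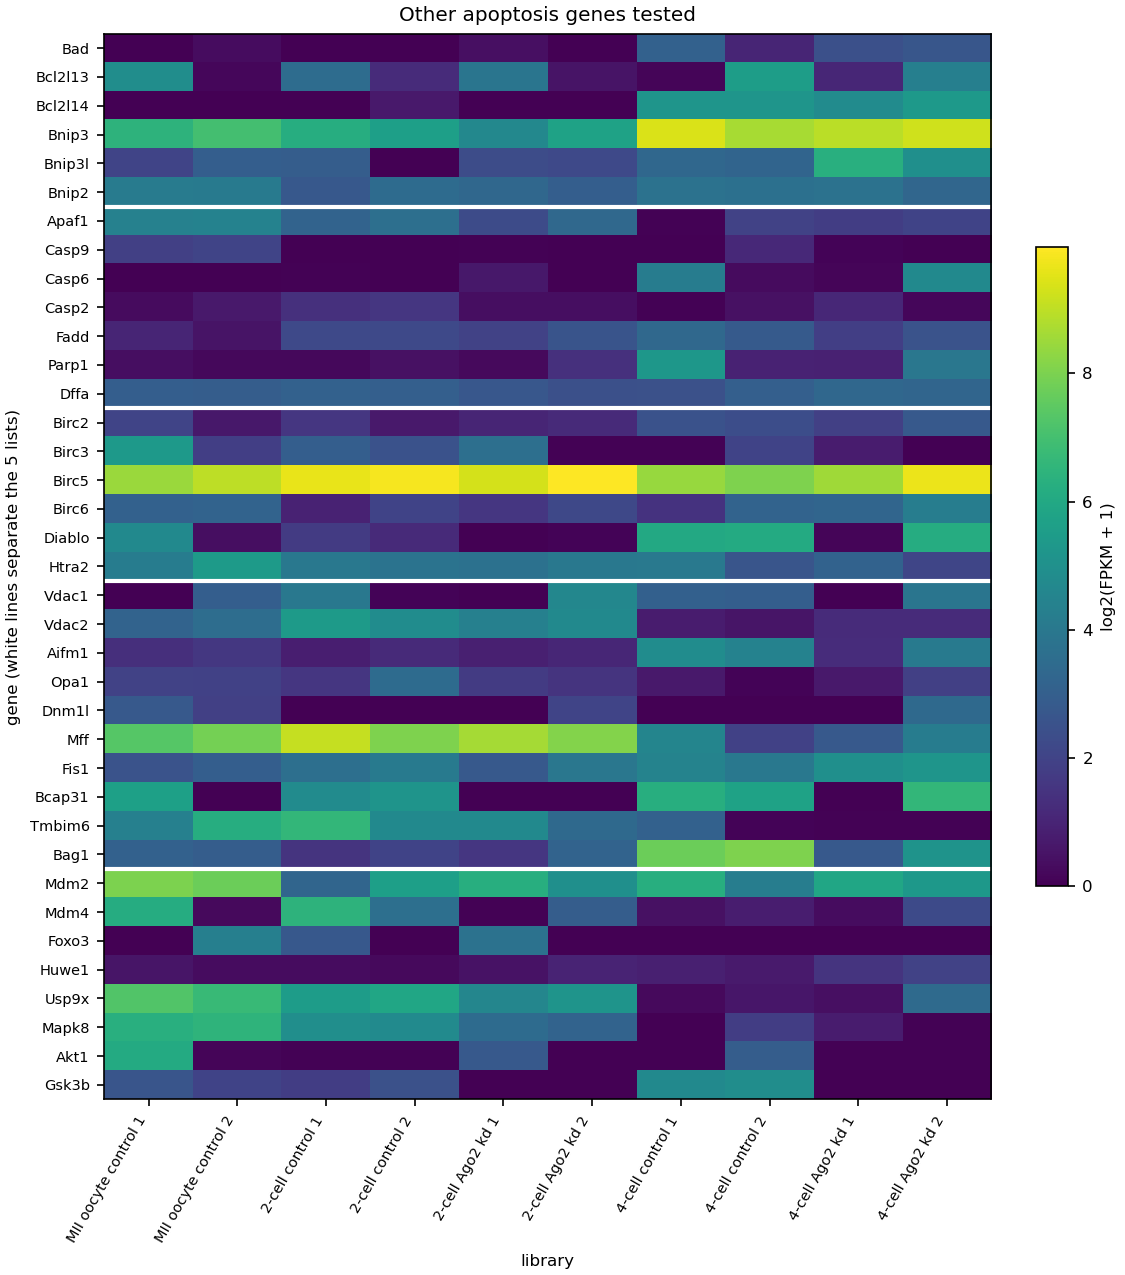
Heat map of log2(FPKM + 1) of the 37 tested apoptosis genes (vertical) in the 10 libraries (horizontal), with white lines between the 5 lists: other BCL2 relatives, apoptosome and caspase genes, IAP proteins and antagonists, mitochondrial channels and released proteins, and regulators. Bcl2l14 is at 27.1 to 40.4 FPKM in the 4-cell libraries and at most 0.599 before, Vdac2 is at most 1.37 FPKM in the 4-cell libraries, and Gsk3b is at 0 in all 4 Ago2 kd libraries.

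Of the 37 list genes tested with Ago2 kd at the 4-cell stage, 2 were higher and 2 lower at unadjusted p, where 15.4% of all genes passed. Gsk3b was the 1 list gene called at adjusted p, where 4.00% of all genes were called. It measured 25.5 and 28.8 FPKM in the controls and was listed at 0 in both Ago2 kd libraries (-4.81, limma, adjusted p = 0.00103), the same form as Bbc3. At the 2-cell stage it was 2.53 and 4.63 FPKM in the controls and again listed at 0 in both Ago2 kd libraries (-2.16, limma, adjusted p = 0.111). As with Bbc3, these sizes depend on the added 1 FPKM, and the spread in both Ago2 kd groups was 0. The 4-cell call of Gsk3b was lost when the groups compared were fitted alone. The part of failed estimates at 0 was not tested. In 4-cell embryos with Ago2 kd, Bag1 was 5.83 and 34.0 FPKM against 215 and 261 in the controls (-3.94, limma, adjusted p = 0.0543).

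At unadjusted p, Bnip3l, a mitophagy receptor, was higher in the 4-cell Ago2 kd libraries, at 77.3 and 30.4 FPKM against 8.97 and 8.37 (2.36, limma, adjusted p = 0.306). Huwe1, a ubiquitin ligase of MCL1, was 1.82 and 2.86 FPKM against 0.842 and 0.665 (0.91, limma, adjusted p = 0.178). Apart from 2-cell Ago2 kd replicate 2 (1.0075 FPKM), Huwe1 reached 1 FPKM only in the 4-cell Ago2 kd libraries. It passed the filter only with them, near the threshold, so its test favoured a higher value there. At the 2-cell stage 0 of the 37 list genes were called, where 0.550% of all genes were called. At unadjusted p 3 were lower, where 5.96% of all genes passed: Gsk3b, Mapk8 (10.1 and 8.01 against 29.8 and 26.1 FPKM) and Casp2 (0.285 and 0.296 against 1.60 and 2.00). Since Casp2 passed the filter only with the 2-cell controls, its test favoured a lower value here. Over the 37 genes the median Ago2 kd change was -0.09 in 2-cell and 0.00 in 4-cell embryos, against 0.00 over all genes in both.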

How the data were processed

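RNA-seq of 10 libraries (5 groups of 2) was used. By the methods and the labels, the authors trimmed reads with Trim Galore, aligned them with HISAT2 (2.1.0 in the submitters' processing notes, which also name CASAVA 1.4) to GRCm38 (mm10), and quantified genes with StringTie. The deposited values are FPKM per gene name; how the authors reached exact 0 values is not given in the sources used here. The count model of the study does not suit FPKM, so log2(FPKM + 1) was tested with limma 3.58.1 (R 4.3.3) instead.

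The 8726 genes that reached 1 FPKM in 2 or more libraries were fitted with 1 mean per group over all 10 libraries, a variance trend and two-sided tests in 6 comparisons, leaving 5 residual degrees of freedom. P-values were adjusted by the Benjamini-Hochberg method over all 8726 genes. A gene was called at an adjusted p below 0.05, and an unadjusted 0.05, the threshold of the study, is given beside it. The method was tested on simulated data. Alternatives were a pseudocount of 0.1, no filter, median scaling, quantile normalization, a replicate block, the groups compared alone, each library left out with the gene set kept, and, chosen after seeing the data, no oocyte libraries.

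Members and lists were chosen with earlier results of these data known. All members are named; of each list, at most 4 genes per comparison with the largest fold change among those called (Ago2 kd: unadjusted p below 0.05 and groups that do not overlap), and genes outside this rule (Trp53, Xiap, Bcl2l13, Aifm1, Opa1 and the general cell genes) were picked after their values were seen. Genes were located by name in GENCODE M21, and upstream sequences are from RefSeq. FPKM carry no counting interval. Where values are said not to overlap between groups or stages, the share of all genes for which this holds was not counted, so it is description alone.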

Additional observations from a re-analysis of the deposited data

Results flagged for a closer look

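The Ago2 kd difference of Bbc3 at the 4-cell stage minus that at the 2-cell stage was -3.59 on the log2(FPKM + 1) scale (limma interaction term, adjusted p = 0.00238). The 4-cell controls measured 12.1 and 10.1 FPKM, and both 4-cell Ago2 kd libraries and all 2-cell libraries were listed at 0. The value therefore restates the 4-cell controls, through which alone Bbc3 passed the filter, and shows no separate difference between the stages. The part of failed estimates at 0 was not tested.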

How the results depend on the processing

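Of the family, the 1 call from MII oocyte to 2-cell control became 0 after median scaling and 0 after quantile normalization (0 to 1 with single libraries left out). The 5 calls from 2-cell to 4-cell control became 3 with no filter on low values, 3 without the oocyte libraries and 7 on the groups compared alone. The 4 from MII oocyte to 4-cell control became 3 with no filter, 5 after median scaling or quantile normalization and 6 on the groups compared alone. The 1 call for Ago2 kd at the 4-cell stage became 0 on the groups compared alone, where fewer libraries give the spread. Of the other apoptosis genes, the 3 called from MII oocyte to 2-cell control became 6 after median scaling, 5 after quantile normalization and 8 on the groups compared alone (1 to 4), and the 15 from 2-cell to 4-cell control 9 to 14. For Ago2 kd they became 1 at the 2-cell stage with a pseudocount of 0.1 (0 to 0), and at the 4-cell stage, from 1, 2 after median scaling or quantile normalization and 0 on the groups compared alone (1 to 3). The interaction gave 0 to 3, with 1 without 4-cell Ago2 kd replicate 1 and 3 without replicate 2. No called result changed direction. Where not stated, the cause was not tested. With a replicate block the other apoptosis genes called for Ago2 kd at the 4-cell stage were 2, Bid was lost from 2-cell to 4-cell control (adjusted p = 0.0677) and from MII oocyte to 4-cell control (0.0525), and the calls over all genes went from 349 to 245 for Ago2 kd at the 4-cell stage and from 48 to 23 at the 2-cell stage. Replicate differences of 2 groups correlated between -0.0931 and 0.0924, so the numbers are only shared. With 2 libraries per group and no counts, small differences in low mRNAs could not be resolved.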
